A study of Mus musculus with 3 samples.

Results

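The proteasome genes of 4T1 cells that over-express WISP2 are described here as 50 of the 34591 rows of a deposited gene count table. The members were chosen by name: every row whose symbol begins with Psm, followed by 1 of the letters a to g and a number, except the interferon-inducible catalytic genes Psmb8, Psmb9 and Psmb10. By role, 31 members are subunits of the proteasome itself (7 of the alpha ring, 7 of the beta ring, 6 ATPases and 3 other subunits of the base, 8 of the lid). Another 4 are activators, 1 is an inhibitor (Psmf1), 3 are assembly factors of the base and 4 are assembly chaperones of the core. Of the remaining rows, Psma8 and Psmb11 are tissue-restricted paralogs, 4 carry pseudogene symbols, and Psmc3ip shares only its name with the complex, being a meiotic recombination factor. The name rule itself uses no expression value, although it was set with earlier results of these data known.

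4T1 is an established mouse mammary carcinoma line. All 3 libraries belong to 1 group, 4T1 cells labelled WISP2 OE, and RNA was sequenced from poly(A)-selected, strand-preserving libraries. The labels' protocol describes stable lines made with packaged vector and puromycin selection for constructs of Wisp1, not for WISP2, and does not say whether the 3 samples are separate cultures, so any measure of spread may be technical. Empty-vector controls named in the design text were not analysed here, so no effect of WISP2 was estimated. The libraries, called C1, C2 and C3 after their column suffixes, held 17630755, 67028365 and 47577315 counts, so that 1 count was worth 0.0567, 0.0149 and 0.0210 CPM (counts scaled to the library total). All 5 epithelial markers examined were detected, with a summed level between 3430 and 3736 CPM. Of 6 leukocyte markers 2 reached 1 CPM in every library and Cd3e was at 0; their sums in the same order were 18.2, 9.37 and 9.56 CPM. Of 6 fibroblast markers (Lum and Thy1 at 0) and 4 endothelial markers 0 reached 1 CPM.

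The proteasome is the protease that degrades most ubiquitin-tagged proteins of the cytosol and nucleus. Its core is a barrel of stacked alpha and beta rings, with the active sites inside, on Psmb5, Psmb6 and Psmb7. A regulatory particle sits on the barrel: its base holds a ring of ATPases that unfold substrates and further subunits that act as scaffold or bind ubiquitin, and its lid removes the ubiquitin chain through Psmd14. Alternative caps made of Psme proteins open the barrel without ATP. Dividing cells and many tumour lines depend on proteasome activity, and the transcription factor encoded by Nfe2l1 raises the subunit genes together when that activity falls short.

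Proteasome subunits were expressed throughout and at high levels. All 31 had at least 1 CPM in each library, as did 11700 genes of the table, and 30 of the 31 exceeded 100 CPM in each library, the exception being the catalytic subunit Psmb5. Their sums were 6520 (C1), 6481 (C2) and 6292 (C3) CPM, or 0.643% of all counts on average. To compare genes with one another, CPM was divided by the exon length of each gene's principal transcript in kilobases. On this scale every subunit lay above the median of detected genes (12.4 CPM per kilobase), and the lowest, Psma3, lay above 78.5% of them. The median over the 31 subunits was 136 in C1, 130.0 in C2 and 132 in C3.

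**Figure D1:**
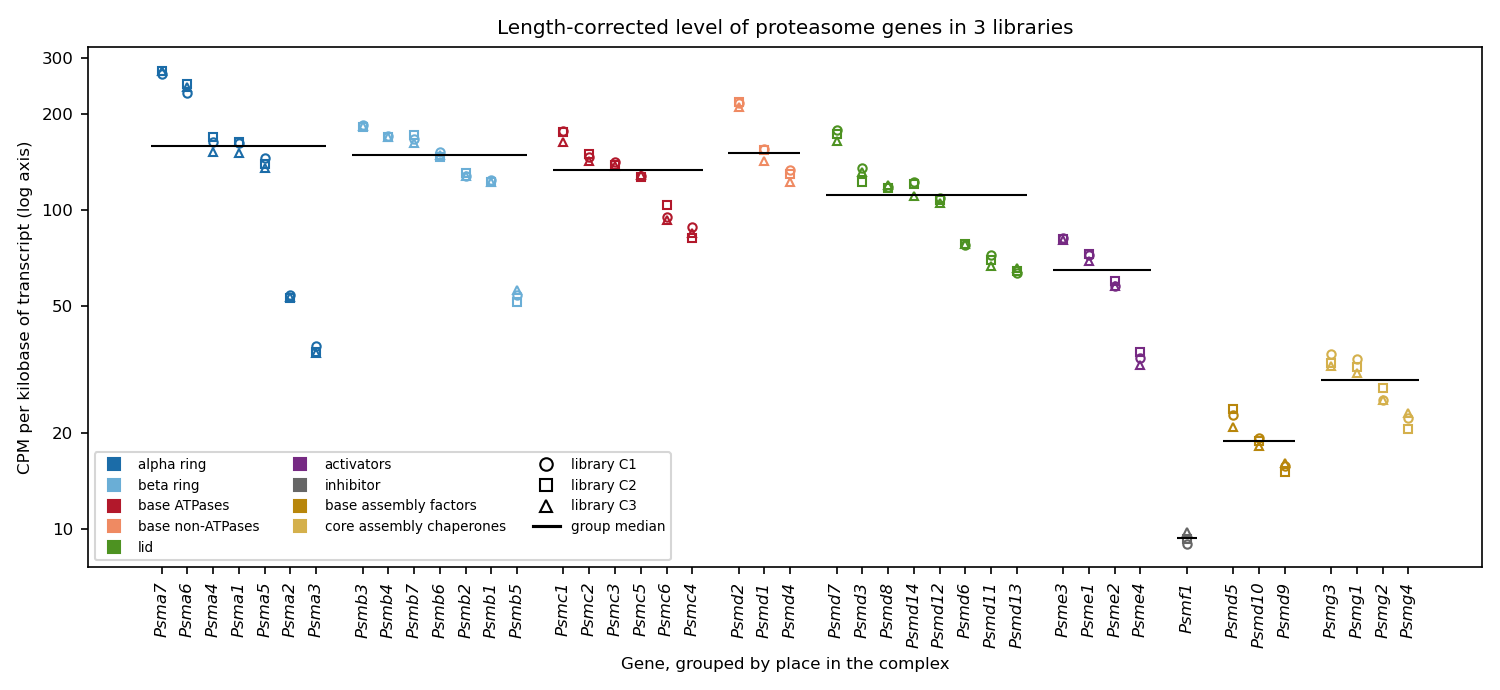
Length-corrected level of 43 proteasome genes (vertical log axis, CPM per kilobase of principal transcript), grouped by place in the complex and ordered by mean within each group; open symbols are the 3 libraries and the black line is the group median. The core, base and lid medians lie between 111 and 159, the activators at 64.6 and the assembly factors and chaperones below 30, and the libraries nearly coincide for each gene.

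The alpha ring, the outer ring whose subunits gate the entrance, was led by Psma7 and Psma6 per transcript length; Psma6 was the higher of the pair per coding length and by union of exons. Psma7 stood at 266, 272 and 273 CPM per kilobase in C1, C2 and C3 (270.4 ± 3.58, SD, n = 3 as for all levels below). Psma6 stood at 232, 248 and 242 (241 ± 7.90). Psma4 (161 ± 8.79), Psma1 (159 ± 7.15) and Psma5 (140.0 ± 5.17) formed the middle of the ring. Psma2 (53.3 ± 0.567) and Psma3 (36.3 ± 0.932) lay far below the others in each library. The principal transcripts of these 2 genes are long, at 2911 and 2846 bases against 914 to 1239 for the other 5, and the gap depended on that length. Per kilobase of coding sequence Psma2 reached 0.911 of the median of the other alpha subunits, against 0.333 per kilobase of transcript. Psma3 reached 0.556 against 0.227. By union of exons the ratios were 0.529 for Psma2 and 0.332 for Psma3. The alpha ring spanned 7.45-fold per transcript length, 2.52-fold per coding length and 7.66-fold by union of exons, with Psma3 lowest each time.

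Per transcript length the beta ring, which carries the active sites, was even apart from 1 member. Psmb3 (183 ± 1.76 CPM per kilobase), Psmb4 (169 ± 0.431) and Psmb7 (167 ± 4.54) were highest, followed by Psmb6 (149 ± 2.69), Psmb2 (128 ± 1.53) and Psmb1 (123 ± 0.972). These 6 genes thus ranged from 123 to 183. Psmb5, the chymotrypsin-like subunit and the main target of proteasome inhibitor drugs, stood at 54.2, 51.4 and 56.1 CPM per kilobase in C1, C2 and C3, below all other beta subunits in each library. The order of the others depended on the length. Per coding length Psmb1 was highest (299). By union of exons Psmb4 (103) and Psmb2 (91.5) were highest and Psmb1 was lowest (46.9 against 53.9 for Psmb5). Psmb5 reached 0.343 ± 0.018 of the median of the other beta subunits, 0.266 per coding length, and 0.866 when the union of all annotated exons was used as length. Its raw counts were 859, 3098 and 2399.

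Sequence shared with other genes touches these values. Of the 50-base stretches of the Psmb5 transcript, 57.1% also occur in transcripts of another gene, mostly Gm3375. The shares were 55.8% for Psmb3, 55.4% for Psma5, 31.5% for Psma4, 28.1% for Psmb7, 26.4% for Psmd2 and 22.0% for Psma3, and 10 of the 31 subunits exceeded 10%. No source used here says how the authors counted reads that match several genes, so the levels of these genes are uncertain, and the part of shared sequence in the low Psmb5 level was not tested. The pseudogene rows Psmb5-ps, Psmb6-ps and Psmb7-ps2 had 0 counts in all libraries.

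Each constitutive catalytic subunit exceeded the immune subunit that can replace it in the core. Psmb6, the caspase-like subunit, exceeded Psmb9 by 5.28 ± 0.26 on the log2 scale (38.8-fold per kilobase), Psmb7, the trypsin-like subunit, exceeded Psmb10 by 2.28 ± 0.03 (4.85-fold) and Psmb5 exceeded Psmb8 by 1.11 ± 0.12 (2.16-fold), in 3 of 3 libraries each. The immune genes stood at 3.85 ± 0.632 (Psmb9), 34.4 ± 1.10 (Psmb10) and 24.9 ± 1.82 (Psmb8) CPM per kilobase, and Psmb9 had only 76, 356 and 286 counts. The excess was smallest for Psmb5 over Psmb8 per transcript length, per coding length (0.32 on the log2 scale) and by CPM, but by union of exons it was smallest for Psmb7 over Psmb10 (1.10 against 2.17 for Psmb5 over Psmb8). Without length correction the excess of Psmb5 was 1.19-fold, with Psmb5 at 48.4 ± 2.12 CPM and Psmb8 at 40.6 ± 2.97 CPM. With 3 libraries an exact test that flips signs reaches at best p = 0.25, and no p-value is therefore attached to this or any other ratio.

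**Figure D2:**
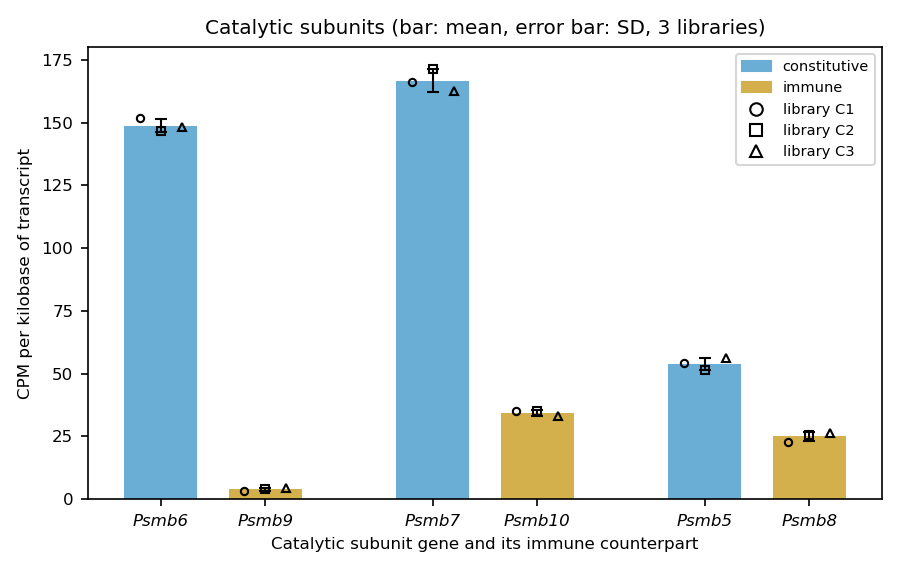
Level of the 3 constitutive catalytic subunits and their immune counterparts (CPM per kilobase of principal transcript, axis from 0); bars are means, error bars SD and symbols the 3 libraries. Psmb6 and Psmb7 stand far above Psmb9 and Psmb10, whereas Psmb5 at 53.9 is closer to Psmb8 at 24.9.

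The ATPases of the base, which form a ring of 6 related proteins, stayed within 2.02-fold. Psmc1 was highest at 177, 175 and 163 CPM per kilobase in C1, C2 and C3, ahead of Psmc2 (146 ± 3.63), Psmc3 (139 ± 1.90) and Psmc5 (128 ± 1.07). Psmc6 (97.0 ± 5.91) and Psmc4 (84.9 ± 3.32) were lowest. The first 4 did not overlap with the last 2 in any library. The low place of Psmc6 held per transcript length only: per coding length it was second to Psmc1 (186 against 207), and by union of exons Psmc2 was lowest (51.8). Of the other base subunits, the scaffold Psmd2 stood at 217, 218 and 210 CPM per kilobase and the scaffold Psmd1 at 155, 154 and 142. The ubiquitin receptor Psmd4 stood at 134, 130.0 and 122 and exceeded the second receptor of the particle, Adrm1, by 1.05 ± 0.12 on the log2 scale (2.07-fold). By CPM alone Psmd2 (637 ± 13.2 CPM) and Psmd1 (468 ± 22.8 CPM) were the most abundant of all members. Both have long transcripts, of 2961 and 3112 bases.

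Per transcript length the lid was the lowest of the main sub-assemblies and the widest outside the alpha and beta rings, at 2.66-fold. Psmd7, the partner of the deubiquitinase in the lid, was highest at 178, 172 and 164 CPM per kilobase in C1, C2 and C3, followed by Psmd3 (130.0 ± 7.07), Psmd8 (118 ± 1.18), Psmd14 (118 ± 6.33) and Psmd12 (107 ± 1.74). Psmd6 (78.0 ± 0.276), Psmd11 (69.4 ± 2.76) and Psmd13 (64.6 ± 1.20) were lowest, though per coding length Psmd6 was lowest (92.7) and by union of exons Psmd11 (31.0). Psmd14, the deubiquitinase of the lid, exceeded its partner Psmd7 in no library. It exceeded Usp14, a deubiquitinase that binds the particle reversibly, by 1.51 ± 0.05 on the log2 scale (2.85-fold per kilobase). This order rested on length, since the counts of Psmd14 were 0.930 of those of Usp14.

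By their median, the activators lay below the core. Psme3, which forms the nuclear cap, stood at 81.6, 80.8 and 80.3 CPM per kilobase in C1, C2 and C3. Its place below the core median held per transcript length only. Per coding length it stood at 283 against a core median of 236, and by union of exons at 73.1 against 64.0. Psme1 and Psme2, which form a joint cytosolic cap, stood at 71.4 ± 2.01 and 58.5 ± 1.32, so that Psme1 exceeded Psme2 by 0.29 ± 0.04 on the log2 scale. The values of these 3 genes did not overlap between genes. Psme4, the large single-chain activator, stood at 34.4, 35.9 and 32.5, or 0.423 of Psme3. Its counts were as high as those of Psme3 (222 ± 11.1 against 216 ± 1.76 CPM), so its lower place rests on its transcript of 6491 bases. Psme2 shares 59.3% of its 50-base stretches with other genes, nearly all with Psme2b. The row Psme2b-ps, a synonym of Psme2b in RefSeq, had 203, 825 and 622 counts (12.3 ± 0.780 CPM), and reads of the 2 genes cannot be told apart where they are identical. Psmf1, which encodes the inhibitor PI31, had the lowest level per transcript length of the 43 genes with a place in the complex, at 8.98, 9.28 and 9.72 CPM per kilobase. Per coding length it stood at 43.7, above Psme4 (40.2) and Psmg4 (33.0).

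By their medians, assembly factors were lower than the subunits they assemble, although Psmg3 lay close to Psma3 (36.3 CPM per kilobase) and exceeded Psmb5 per coding length (80.9 against 61.2). The chaperones that build the core, Psmg1 (32.3 ± 1.64 CPM per kilobase), Psmg2 (26.1 ± 1.35), Psmg3 (33.5 ± 1.49) and Psmg4 (22.0 ± 1.35), lay within 1.53-fold. These proteins work as the pairs Psmg1 with Psmg2 and Psmg3 with Psmg4. Within libraries the first of each pair was higher, by 0.31 ± 0.11 and 0.61 ± 0.11 on the log2 scale in 3 of 3 libraries. The order of Psmg3 and Psmg4 turned with the union of exons as length (-1.10). Psmg4 was the member with the fewest counts among these, with 218 in C1 (12.4 CPM, exact 95% binomial interval 10.8 to 14.1, for counting error only). Of the factors that assemble the base, Psmd5 stood at 22.4 ± 1.52, Psmd10 (also known as gankyrin) at 18.8 ± 0.542 and Psmd9 at 15.6 ± 0.524 CPM per kilobase. Pomp, the maturation factor of the core, was higher than any of these 7 genes at 80.4 ± 1.88 per transcript length. By union of exons it was slightly below Psmg1 (24.3 against 25.1).

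Tissue-restricted paralogs were not seen. Psma8, the germline paralog of Psma7, and Psmb11, the catalytic subunit of cortical thymus epithelium, had 0 counts throughout. A count of 0 leaves room for 3 counts, or 0.170, 0.0448 and 0.0631 CPM in the order C1, C2, C3. By counts without length correction, and with Psma8 set to 3 counts in each library, Psma7 was at least 1431-fold higher in C1. Psmc3ip stood at 15.2 ± 1.14 CPM, and Psmc3 exceeded it by 3.56 ± 0.12 on the log2 scale per kilobase (11.8-fold); 27.1% of the 50-base stretches of Psmc3ip also occur in Mlx. Of the 50 members, 45 thus had counts in every library and 5 had none.

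Set side by side, the sub-assemblies fell in the order alpha ring, other base subunits, beta ring, base ATPases, lid, activators, core chaperones and base assembly factors. Their median levels were 159 ± 7.15, 150.2 ± 7.32, 149 ± 2.69, 133 ± 1.10, 111 ± 2.86, 64.6 ± 1.45, 29.0 ± 0.939 and 18.8 ± 0.542 CPM per kilobase. The first 3 of these overlapped between libraries, and alpha exceeded beta by only 0.09 ± 0.07 on the log2 scale. Over all 14 core subunits, the median exceeded that of the base by 0.15 ± 0.02 (1.11-fold) and that of the lid by 0.469 ± 0.002 (1.38-fold), and base exceeded lid by 0.32 ± 0.03 (1.25-fold), in 3 of 3 libraries each. Activators lay 1.25 ± 0.03 below the core (a ratio of 0.420). The spread over libraries is much smaller than the effect of the length used. Core over base was 0.45 on the log2 scale by coding length, -0.009 by union of exons and -0.345 by CPM alone. Core over lid was 0.53, 0.15 and -0.087 in the same order. The order of core and base, and that of core and lid by CPM alone, turned with the length used. For the medians, the order of activators below core, and of both groups of assembly factors below the activators, was the same under all 3 lengths and by CPM alone.

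**Figure D3:**
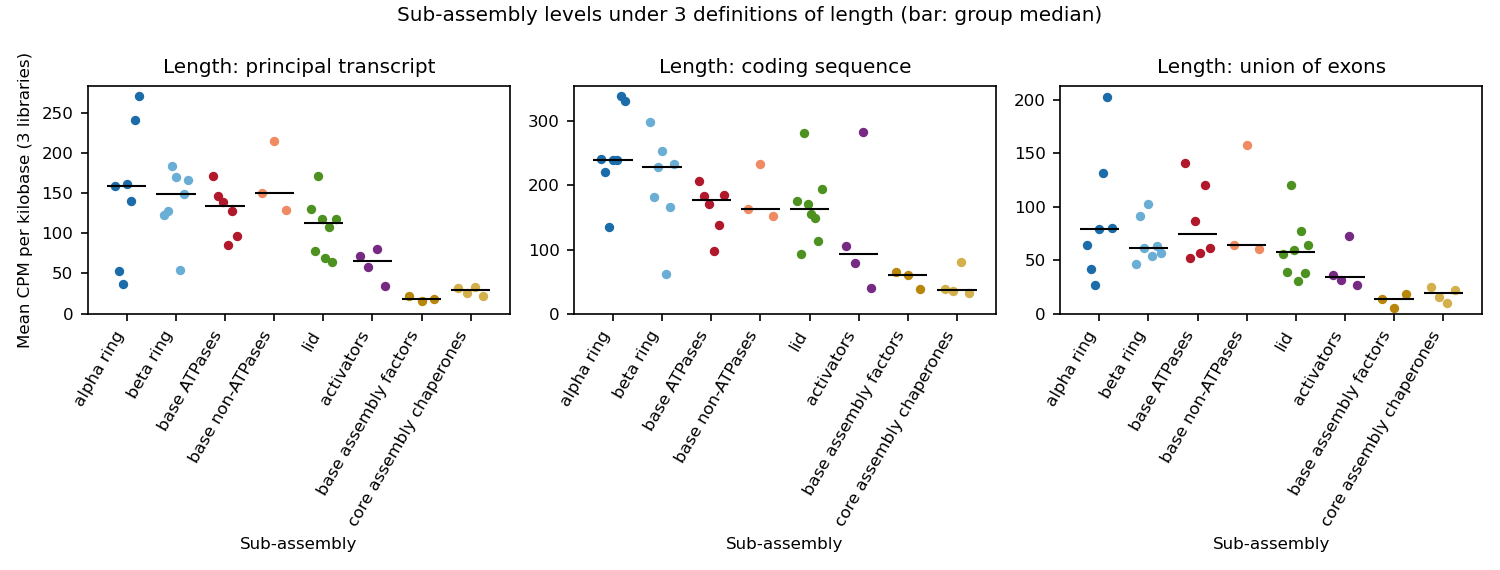
Mean level over 3 libraries of each gene (points) and group median (bars) for 8 sub-assemblies, with CPM divided by 3 different lengths (vertical axes from 0, CPM per kilobase). The core, base and lid groups change places between panels, while the medians of activators, base assembly factors and core chaperones are the lowest 3 in each.

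The subunits of the proteasome are present in equal numbers in the assembled core, base and lid, but their transcript levels were not equal. The SD of log2 level among the 31 subunits was 0.66 per transcript length, 0.55 per coding length and 0.68 by union of exons. Over all 11543 detected genes with a length it was 2.14. The 8 genes of the CCT chaperonin, another ring of equally represented subunits, had an SD of 0.44, 0.33 (7 genes with a coding length) and 0.76 on the same scales. They lay higher than the proteasome, with a median of 362 CPM per kilobase. No test of this difference was made, because genes are not replicates. Per transcript length, which subunit was highest and which lowest in each sub-assembly was the same in all 3 libraries.

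Genes that work with the proteasome were detected where the table listed them. Of 11 symbols of partners outside the name rule 7 were in the table, and all 7 reached 1 CPM (Paaf1, Sem1, Ecm29 and Ecpas were not analysed under those symbols): besides Pomp, Adrm1 and Usp14 these were Shfm1, the smallest lid subunit (66.2 ± 1.31 CPM per kilobase), the deubiquitinase Uchl5 (68.6 ± 3.62), Txnl1 (38.8 ± 1.15) and AI314180, the symbol used for Ecm29 (31.0 ± 1.47). All 6 shuttle factors that carry ubiquitinated proteins were detected, led by Rad23b (107 ± 2.19) and lowest for Ddi2 (6.29 ± 0.263), the protease that activates the Nfe2l1 product. Nfe2l1 itself stood at 63.3 ± 2.84 CPM per kilobase, above its relative Nfe2l2 (34.7 ± 0.873). Vcp, the ATPase that extracts ubiquitinated proteins, stood at 154 ± 2.06, and Ngly1, the glycanase that processes the Nfe2l1 product, at 3.37 ± 0.151. Of the ubiquitin genes, Rps27a (680 ± 13.3) and Ubb (391 to 427) exceeded every proteasome subunit per transcript length. By mean CPM alone Psmd2 (637) exceeded both Ubb (613) and Rps27a (538), although Ubb was above Psmd2 in C3 (640 against 622). In edgeR's test of spread, described next, 0 of the 7 partners, 6 shuttle factors and 10 control genes passed; in the Poisson test, also described next, 5 of 7 partners, 4 of 6 shuttle factors and 6 of 10 control genes passed, beside 39.3% of all genes tested and 71.6% of those between 100 and 1000 CPM.

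Proteasome genes varied little between the libraries. In edgeR's quasi-likelihood F test of spread against genes of similar level, 0 of the 45 members tested passed at an adjusted p of 0.05, against 0.0691% of all genes tested (9 of 13026), a share at which 0 members is also what the background gives. By unadjusted p under 0.05, 0 of 45 members passed against 671 of 13026 genes (5.15%). DESeq2 marked 0 members as dispersion outliers, beside 90 of 18797 genes, a share at which 0 members is again what the background gives. The members nearest to the threshold were Psmd5, Psmc6, Psmd3, Psma4 and Psmd14, each with an adjusted p of 0.995 in edgeR's quasi-likelihood test. The coefficient of variation over libraries had a median of 3.36% over the 45 members, with a range of 0.255% to 7.46%, against 5.41% over all genes tested. Between 100 and 1000 CPM, a range chosen after seeing the data, the medians were 2.524% over 32 members and 3.499% over 2391 genes. The most uniform members were Psmb4, at 200.8, 199.8 and 200.4 CPM in C1, C2 and C3, and Psmd6, at 107.8, 108.0 and 108.6 CPM.

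**Figure D4:**
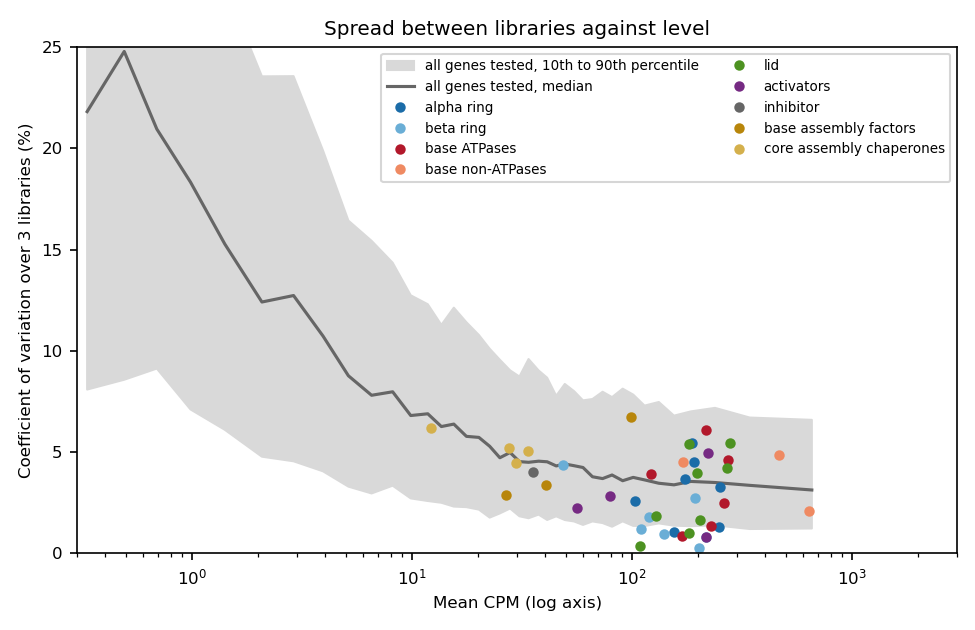
Coefficient of variation over the 3 libraries (vertical axis, %) against mean CPM (horizontal log axis) for 43 proteasome genes, with the median (line) and the 10th to 90th percentile (grey) of all genes tested at each level. Psmd5 at 6.75% and Psmc6 at 6.09% are the highest members above 50 CPM, and Psmb4 at 0.255% is the lowest.

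Against counting noise alone more members stood out. In the Poisson dispersion test (chi-square, Benjamini-Hochberg adjusted), 19 of 45 members passed (42.2%), beside 39.3% of all genes tested, a share near the background. The test gains power with counts, and among genes between 100 and 1000 CPM 17 of 32 members (53.1%) and 71.6% of all 2391 genes passed. By sub-assembly 4 of 7 alpha, 2 of 7 beta, 4 of 6 ATPase, 3 of 3 other base, 4 of 8 lid, 1 of 4 activator, 1 of 3 base assembly and 0 of 4 core chaperone genes passed. The furthest from counting noise were Psmd1, at 483, 479 and 441 CPM in C1, C2 and C3, Psmc6, at 211, 232 and 207 CPM, and Psmd3, at 291, 262 and 282 CPM. Psmd1 and Psmc6 were lowest in C3 and above their mean in C2, whereas Psmd3 was lowest in C2. Without C3 the count was 4 of 45, beside 1667 of 12970 genes tested, and without C2 it was 11 of 45, beside 1761 of 12774, so the share of all genes fell as well.

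The deviations were small, and C3 was most often the lowest library. Relative to each gene's mean over the libraries, the members' median deviation on the log2 scale was 0.01 in C1, 0.00 in C2 and -0.02 in C3, beside 0.00 in each library over all genes tested. Of 45 members 22 (48.9%) had their lowest value in C3, beside 35.4% of all genes tested; between 100 and 1000 CPM these shares were 53.1% and 42.9%. The base genes outside the ATPase ring, Psmd1, Psmd2 and Psmd4, were all lowest in C3 (median deviation -0.07), as were 4 of 7 alpha genes, 4 of 8 lid genes, 3 of 6 ATPases and 3 of 4 activators. Only 1 of 7 beta genes was. Psmd5 was the member furthest from its mean in C3, at 91.3 CPM against 100.1 in C1 and 104 in C2. Psma4 (177 against 190.4 and 197 CPM) and Psmd14 (170.2 against 188 and 186 CPM) were also low there. The epithelial markers Krt8 (1170 CPM in C3 against 1038 and 1023), Epcam (101 against 82.0 and 89.3), Krt18 and Krt7 were highest in C3. The remaining epithelial marker, Cdh1, was lowest there (431 CPM against 437 in C1 and 463 in C2). Of the leukocyte markers, Lyz2, Emr1, Csf1r and Cd68 were highest in C1, whereas Ptprc was lowest there (0.0567 CPM against 0.119 and 0.273). The part of these markers in the deviations was not tested.

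**Figure D5:**
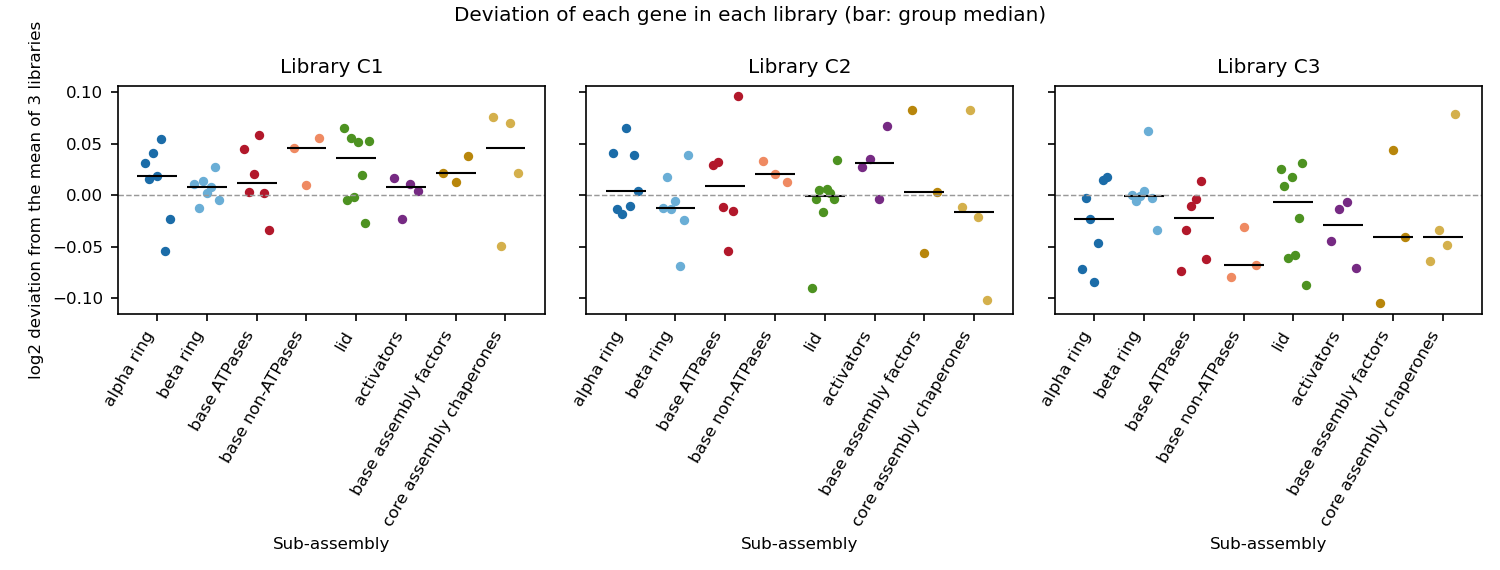
Deviation of each gene from its mean over the 3 libraries (vertical axis, log2 scale), 1 panel per library, for 42 genes in 8 sub-assemblies; points are genes and bars group medians. The point furthest from 0 is Psmd5 in C3, at -0.105, and the base non-ATPase genes lie lowest in C3, at a median of -0.07.

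Proteasome subunit genes are known to be regulated together, and their promoters were searched for short motifs. RefSeq promoters (GRCm38.p6, 250 bases before to 50 after each start site) were given for 38 of the members. These 38 include Psmb11, which had 0 counts, and Psmc3ip, which is no part of the complex. The ETS core CCGGAAG, searched on both strands, lay in 15 of these 38 (39.5%), Psmc3ip among them. The share was 21.7% of 7870 genes detected in these libraries and 9.93% of all 27025 genes with a promoter. The ETS core lay in 5 of 8 base and 4 of 6 lid genes and in 1 of 11 core genes. The antioxidant response element TGACNNNGC, the site of the Nfe2l1 and Nfe2l2 products, lay in 6 (15.8%) beside 17.5% of detected genes. CCAAT lay in 36.8% beside 44.0%, TATAAA in 7.89% beside 8.02% and a motif like the interferon-stimulated response element in 13.2% beside 3.58%. These are matches of letters and not sites shown to be bound. The 10 subunits with an ETS core and the 15 without it had median levels of 118 and 140.0 CPM per kilobase.

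The ETS matches upstream of base and lid genes are shown because most of the genes with an ETS match belong to these groups. Those of Psmd11 and Psmd13 are left out. None of the matches shown overlaps another. Each stretch is written on the strand of its gene, from 5′ to 3′, with the ETS core or its reverse complement in capitals.
Psmc1, + strand, chr12:100110164-100110190: ggtggatgcaCTTCCGGcggtggcgat
Psmc2, + strand, chr5:21786713-21786739: cgcggagctaCTTCCGGtggggaagag
Psmc6, + strand, chr14:45329714-45329740: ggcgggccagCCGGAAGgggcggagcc
Psmd2, + strand, chr16:20651616-20651642: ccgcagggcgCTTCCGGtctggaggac
Psmd4, - strand, chr3:95042723-95042749: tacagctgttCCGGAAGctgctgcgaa
Psmd6, - strand, chr14:14120974-14121000: agagacgcgaCCGGAAGtcagactggc
Psmd12, + strand, chr11:107479501-107479527: gagcgggcgaCTTCCGGtgcgagtgac
The match of Psmd12 begins 17 bases before the start site, that of Psmd2 26, that of Psmc1 28, that of Psmd6 45, that of Psmc6 100 and that of Psmd4 125; Psmc2 has 2 start sites with a match each, and the one shown begins 24 bases before its own. The antioxidant elements of Psmb5, the lowest beta subunit per transcript and coding length, and of Psmd9 are shown as examples. They lie 47 and 31 bases before the start site. Matches whose written stretch would cross the start site or the promoter edge were left out, so closer ones may exist.
Psmb5, - strand, chr14:54618024-54618052: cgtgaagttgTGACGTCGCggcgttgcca
Psmd9, + strand, chr5:123228149-123228177: atctagccggTGACCCCGCccacttccaa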

How the data were processed

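The authors deposited 1 table of raw read counts per gene symbol, as whole numbers without normalization (judged from its values). CASAVA 1.7, BWA, STAR and HTSeq and build mm9 are named without role or order, per the submitters' processing notes. The sources used here do not give annotation, strand setting or multi-mapping rule, so genes overlapping on opposite strands may share reads. Examples are Psmb7 and Nek6, Psmc3 and Slc39a13, and Psmd9 and Gm26745 (1849 bases). Others include Psmb8 and Gm20496 (498 bases), Psmd13 and Sirt3 (342 bases), and Psmb9 and Tap1 (212 bases). Column names match no sample title, so columns were assigned to the single group.

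CPM used the library totals. Lengths came from the principal transcript (APPRIS tag) of GENCODE M21, on another build and used for lengths only, with coding length and union of exons as alternatives chosen after seeing the data. The planned coding length from RefSeq proteins was replaced by that of GENCODE because no protein table was used here. Pair ratios had 0.5 counts added. Spread was tested with edgeR 4.0.16 (R 4.3.3; TMM, filterByExpr, intercept-only quasi-likelihood fit, F test of each gene's dispersion against the trended prior) and a Poisson dispersion test, both Benjamini-Hochberg adjusted over 13026 genes and tested on simulated data; DESeq2 1.42.0 was an alternative. Shared sequence was the share of 50-base stretches of the principal transcript found in another gene's GENCODE transcripts, either strand.

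Members, lists and tests were chosen with earlier results of these data known. The genes named are the catalytic subunits with their immune counterparts, all activators, Psmf1, all chaperones, the highest 3 and lowest 2 of each other sub-assembly, members below 1 CPM, the 5 smallest p of the spread test and the preset pairs; all other subunits were added. Binomial intervals (95%) and limits of 3 counts cover counting error only. Some genes of the ubiquitin list are not reported here.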

Additional observations from a re-analysis of the deposited data

How the results depend on the processing

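All counts of members past the edgeR spread test were 0 under each scaling (TMM, DESeq2 size factors, total counts), filter, prior, the DESeq2 dispersion outliers and without each library. Few genes of any kind passed under these settings. The calls over all genes were 0 of 13026 with the robust prior, 14 of 13026 with total counts and 171 of 18797 without a filter. They were 90 of 18797 for the DESeq2 outliers and 52 of 13337 without C1. At such shares 0 members is also what the background gives. The 19 members past the Poisson test stayed at 19 under each scaling and filter and came to 15 when C2 and C3 were thinned to the depth of C1, beside 2602 of 12122 genes. Without 1 library the count lay between 4 (without C3, beside 1667 of 12970 genes) and 16 (without C1, beside 4908 of 13337). The median deviation in C2, 0.002, was -0.008 without C3 and 0.012 without C1. There each gene's mean was taken over the remaining libraries only, and the cause of the change was not tested. No paired analysis was possible because there is only 1 group.

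Most level results moved with the length used. Without length correction, alpha over beta was 0.42 on the log2 scale, core over base -0.345, core over lid -0.087, base over lid 0.26 and activators over core -0.47. The summed level kept the transcript length but took sums over the genes of each group in place of medians, so group size enters. By summed level, core over base was 0.69, core over lid 1.25, base over lid 0.56 and activators over core -3.05. By coding length, core over base was 0.45, core over lid 0.53, base over lid 0.074 and activators over core -1.36. By union of exons, alpha over beta was 0.36, core over base -0.009, core over lid 0.15, base over lid 0.16 and activators over core -0.92. Without subunits that share sequence, the 5 ratios were 0.50, 0.24, 0.38, 0.15 and -1.55; the cause was not tested.

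Median levels of the alpha ring, beta ring, ATPases, other base subunits, lid, base assembly factors and activators were 188, 140.3, 222, 468, 192, 40.5 and 131 CPM without length correction. Per kilobase of coding sequence they were 242, 228, 177, 164, 163, 60.1 and 91.3, with 36.9 for the core chaperones. By union of exons they were 78.2, 61.0, 73.5, 64.4, 57.7, 13.6 and 33.9, with 18.7 for the core chaperones. Without subunits that share sequence, the alpha ring stood at 196, the beta ring at 138, ATPases at 128, other base subunits at 139, lid at 118, core chaperones at 26.1 and activators at 52.7. TMM sizes left all medians within 1 SD.

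Of 11 gene pairs with 7 alternatives each, 3 of 77 values turned: Psme4 over Psme3 (0.044) and Psmd14 over Usp14 (-0.104) without length correction and Psmg3 over Psmg4 (-1.10) by union of exons; 27 moved by more than 1 SD in the same direction.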
